A study of Homo sapiens and Mus musculus with 10 samples.

Results

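The HLA class II genes studied here were HLA-DRA, HLA-DRB1, HLA-DQA1, HLA-DQB1, HLA-DPA1, HLA-DPB1, HLA-DMA, HLA-DMB, HLA-DOA and HLA-DOB. They were taken by symbol from GENCODE release 44 on the primary chromosome 6, which gave 10 genes of 19970 protein-coding genes on the autosomes and the X chromosome. Accessibility was read from bulk ATAC-seq, in which the Tn5 transposase inserts adapters into open chromatin, and each library was deposited as 1 list of peaks. The human libraries came from 4 untreated cell lines with 2 replicates each: GM12878, a B lymphoblastoid line, HEK293T, an embryonic kidney line, HFF1, a foreskin fibroblast line, and K562, a leukaemia line with erythroid features. The other 2 of the 10 libraries were from mouse embryonic stem cells (mESC). Each human line is 1 genotype, so cell type and HLA haplotype cannot be told apart. The labels do not say that replicates were separate cultures, so p-values measure the spread between these libraries, which may be technical.

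Class II molecules are pairs of an alpha and a beta chain that present peptides to CD4+ T cells. HLA-DR, HLA-DQ and HLA-DP are the classical presenting molecules, HLA-DM exchanges the peptide during loading, and HLA-DO holds HLA-DM back. B cells transcribe these genes constitutively, while many other cell types do so after interferon-gamma. The RFX complex, CREB and NF-Y bind the X, X2 and Y boxes upstream of the genes, and they recruit the coactivator CIITA.

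The X and Y boxes are shown first because summit positions are given relative to them below. The RefSeq promoter table (GRCh38.p14, 250 bases before to 50 after a start) held 9 of the 10 genes in 10 entries, all identical to GRCh38, and HLA-DRA was not among them. An X core written AGNNNCNGA and a Y box written ATTGG were searched on both strands; the letters of the X core were chosen with the promoters of these genes in view. Among all 35116 promoters of 300 bases, 54.1% held an X core and 34.6% a Y box. An X core followed on the same strand by ATTGG after 15 to 30 bases, called the X-Y module here, was in 342 promoters (0.974%) and in those of 6 of the 9 genes: HLA-DRB1, HLA-DQA1, HLA-DQB1, HLA-DMA, HLA-DOA and HLA-DOB. In these 6 genes the gap between the boxes was 23 to 25 bases. The modules are printed 5′ to 3′ on the strand of the gene with 8 flanking bases, with the X core and the Y box in capitals, so that their common layout can be compared.
HLA-DRB1: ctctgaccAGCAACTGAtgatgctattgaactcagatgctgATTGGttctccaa
HLA-DQA1: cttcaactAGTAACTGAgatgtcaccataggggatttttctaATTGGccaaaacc
HLA-DQB1: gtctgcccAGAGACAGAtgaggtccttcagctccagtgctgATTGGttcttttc
HLA-DMA: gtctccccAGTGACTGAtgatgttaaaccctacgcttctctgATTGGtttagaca
HLA-DOA: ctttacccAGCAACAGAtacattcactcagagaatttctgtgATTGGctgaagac
HLA-DOB: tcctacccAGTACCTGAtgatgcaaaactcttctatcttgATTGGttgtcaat
On GRCh38 these runs are chr6:32589882-32589935 (minus strand, HLA-DRB1), chr6:32637296-32637350 (plus, HLA-DQA1), chr6:32666733-32666786 (minus, HLA-DQB1), chr6:32953164-32953218 (minus, HLA-DMA), chr6:33009646-33009700 (minus, HLA-DOA) and chr6:32817088-32817140 (minus, HLA-DOB), and all lie upstream of the RefSeq start. The letters TGATG, searched here as the X2 box, followed the X core directly in HLA-DRB1, HLA-DMA, HLA-DMB and HLA-DOB, against 0.094% of all promoters. They did not in the others of the 9 genes. As the X core was chosen with these promoters in view, the difference in share is no test of the X2 box.

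The promoters of HLA-DPA1, HLA-DPB1 and HLA-DMB did not hold the module as written. HLA-DMB had an X core with TGATG but a Y box only in the reverse orientation (CCAAT), and HLA-DPB1 had Y boxes in both orientations without an X core on the gene's strand. The 250 bases upstream of the RefSeq starts of HLA-DMB (chr6:32941029-32941278, minus strand) and HLA-DPB1 (chr6:33075740-33075989, plus strand) are printed beside those of HLA-DRB1 (chr6:32589849-32590098, minus) and HLA-DMA (chr6:32953098-32953347, minus), which do hold it, to show what the search found in promoters with and without the module. Capitals mark the module in HLA-DRB1 and HLA-DMA. In the other pair they mark X cores on the gene's strand and Y boxes in either orientation.
HLA-DRB1 upstream: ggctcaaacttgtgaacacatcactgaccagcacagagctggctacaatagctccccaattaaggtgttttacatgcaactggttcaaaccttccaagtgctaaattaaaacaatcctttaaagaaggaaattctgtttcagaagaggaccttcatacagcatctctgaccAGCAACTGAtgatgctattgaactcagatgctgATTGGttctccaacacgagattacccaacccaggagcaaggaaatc
HLA-DMA upstream: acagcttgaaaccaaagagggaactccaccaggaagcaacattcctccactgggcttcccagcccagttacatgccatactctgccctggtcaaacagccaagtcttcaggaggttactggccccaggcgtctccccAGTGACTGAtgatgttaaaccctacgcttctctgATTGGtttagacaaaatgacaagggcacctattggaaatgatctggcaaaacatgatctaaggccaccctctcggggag
HLA-DMB upstream: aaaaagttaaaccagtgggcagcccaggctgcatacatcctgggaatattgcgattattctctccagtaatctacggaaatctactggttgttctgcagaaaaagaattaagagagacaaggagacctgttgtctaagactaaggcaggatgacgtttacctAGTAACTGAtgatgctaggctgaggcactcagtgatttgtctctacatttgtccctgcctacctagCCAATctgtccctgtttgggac
HLA-DPB1 upstream: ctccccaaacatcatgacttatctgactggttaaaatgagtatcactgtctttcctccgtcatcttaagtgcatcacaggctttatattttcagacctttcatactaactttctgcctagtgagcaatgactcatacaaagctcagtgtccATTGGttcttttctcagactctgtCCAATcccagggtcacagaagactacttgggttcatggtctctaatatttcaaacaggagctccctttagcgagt
A match is a description of the letters and says nothing about binding.

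The lists differed in depth. They held 101779 and 103788 peaks in GM12878, 52476 and 52170 in HEK293T, 127560 and 120535 in HFF1, and 78753 and 71381 in K562. The background level, which is the 1% quantile of the local backgrounds of a list in reads and follows depth, was 0.465 and 0.466 in HEK293T against 1.71 to 2.43 in the other 6 libraries. A gene without a peak is therefore one with no peak past the authors' threshold at that depth, and this limit is strictest in HEK293T. The labels were checked against start-site peaks of marker genes: all 5 B cell markers had one in both GM12878 libraries (2 of 5 in each other line), GATA1 and TAL1 had one in K562 only, all 4 fibroblast markers in HFF1 (2 in GM12878, 2 in HEK293T and 3 in K562), and PAX2 and LHX1 in HEK293T only. KLF1 and HBG1, also fixed as erythroid markers, had none in any line.

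A start-site peak was a peak that overlapped the 1 kb on either side of any annotated start of the gene by at least 1 bp. All 10 class II genes had one in both GM12878 libraries, where 71.9% of all protein-coding genes did. In HEK293T 5 of 10 did (67.8% of all genes), in HFF1 7 of 10 (76.2%) and in K562 4 of 10 (70.4%). HLA-DRB1 had peaks in both GM12878 libraries and in no other human library, a pattern of 1.4% of all genes. HLA-DQA1 and HLA-DQB1 had peaks in both GM12878 and both HEK293T libraries and in none of HFF1 or K562, a pattern of 0.14% of all genes. HLA-DMA, HLA-DMB and HLA-DOA had peaks in all 8 libraries, as did 59.7% of all genes.

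The share of each gene's start-site window covered by peaks was compared between GM12878 and the mean of the other 3 lines with limma, with Benjamini-Hochberg adjustment over the 16634 genes that had coverage in at least 2 libraries. All 10 class II genes passed that filter, HLA-DRB1 through the GM12878 libraries alone. Coverage was higher in GM12878 at an adjusted p under 0.05 for 7 of the 10, namely HLA-DRA, HLA-DRB1, HLA-DQA1, HLA-DQB1, HLA-DMA, HLA-DMB and HLA-DOB, and lower for 0. Over all tested genes 27.8% were higher and 18.2% lower. The median difference was 8.36 percentage points over the 10 class II genes and 0.960 points over all tested genes. All the single-gene p-values below come from this limma fit. Coverage moves with depth and list length as well as with accessibility, and dividing it by the total peak length of the library left 5 of the 10 genes called higher, beside 10.4% of all tested genes higher and 47.2% lower on that scale: HLA-DQA1 (adjusted p = 0.178, limma) and HLA-DMA (adjusted p = 0.167, limma) no longer passed.

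**Figure D1:**
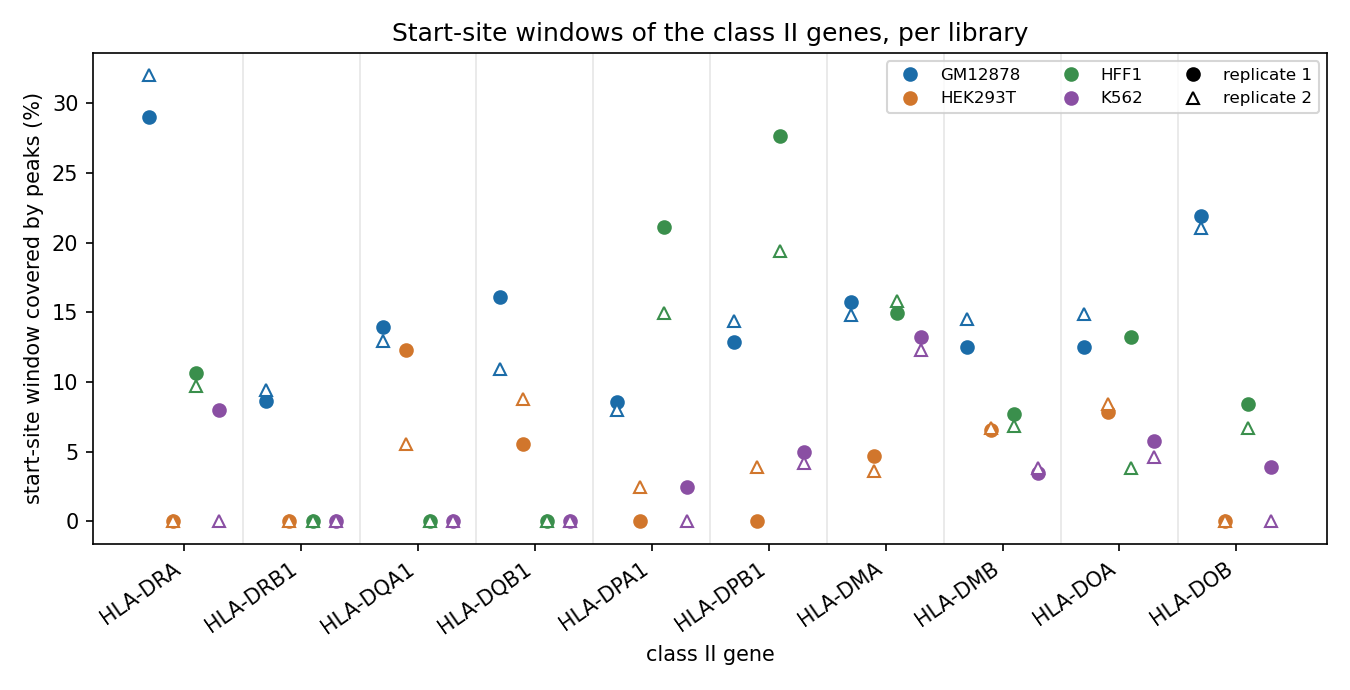
Share of the start-site window covered by peaks (%, vertical axis) for each of the 10 class II genes (horizontal axis), with 1 point per library, colour for the line, filled circles for replicate 1 and open triangles for replicate 2. GM12878 was above every other library for HLA-DRA, HLA-DRB1, HLA-DQA1, HLA-DQB1, HLA-DMB and HLA-DOB, whereas both HFF1 libraries were above GM12878 for HLA-DPA1 and HLA-DPB1.

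HLA-DRA encodes the DR alpha chain, the invariant partner of all DR beta chains (ENSG00000204287.14, chr6:32439878-32445046, plus strand). Peaks covered 29.0% and 32.0% of its window in GM12878, 10.7% and 9.70% in HFF1, 8.01% and 0% in K562, and 0% in both HEK293T libraries. The GM12878 values did not overlap those of any other line, and the difference from the mean of the others was 25.8 points (SE 2.09, adjusted p = 0.000258, limma). The pileup, the number of reads stacked at the summit, was 102 and 94 in GM12878, 27 and 17 in HFF1 and 17 in K562 replicate 1. All 5 summits lay between -83 and -67 bp of the first start site (negative values are upstream), so the weak peaks of HFF1 and K562 were at the same place as the strong ones of GM12878.

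HLA-DRB1 encodes the main DR beta chain (ENSG00000196126.12, chr6:32577902-32589848, minus strand). Its window was covered to 8.67% and 9.42% in GM12878 and to 0% in the other 6 libraries. The difference was 9.05 points (SE 0.307, adjusted p = 1.22e-05, limma), and without the filter, over 19970 genes, the adjusted p was 1.19e-05 (limma). As it passed the filter only where it was high, its call adds nothing to its presence in GM12878 alone. Among the 20000 strongest peaks of each library HLA-DRB1 had none in any library. The summits lay 62 and 69 bp after the nearest start, inside the gene, with pileups of 42 and 47, and 149 and 156 bp downstream of the middle of the Y box. DR beta genes are near-identical copies: the 54 bases of the HLA-DRB1 module differed at 1 base from those of HLA-DRB5 and at 0 bases from a run in the HLA-DRB9 pseudogene, so reads of these genes could be exchanged or discarded. How reads that match several copies were placed is not given in the sources used here, and their part in these values was not tested.

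HLA-DRB5, a further DR beta gene, is no member of the set but bears on this limit. Its window was covered to 9.95% and 20.1% in GM12878, to 7.5% and 0% in HEK293T and to 0% in HFF1 and K562. The pileups at the region over its start were 18 and 16 in GM12878 and 6 in HEK293T replicate 1, lower than at HLA-DRB1 in GM12878. No library had a peak in the 59.1 kb between the HLA-DRB5 and HLA-DRB1 start regions (chr6:32530458-32589576), a stretch that contains most of the body of HLA-DRB1.

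HLA-DQA1 encodes the DQ alpha chain (ENSG00000196735.13, chr6:32628179-32647062, plus strand). Coverage was 13.96% and 12.95% in GM12878, 12.3% and 5.58% in HEK293T, and 0% in the 4 HFF1 and K562 libraries. The difference from the mean of the others was 10.5 points (SE 1.64, adjusted p = 0.00347, limma). Against HEK293T alone it was 4.50 points (adjusted p = 0.0962, limma), which did not pass. The position of the peak separated these lines: the highest GM12878 summits lay at -100 and -97 bp of the nearest start, at -7 and -4 bp of the middle of the X core, with pileups of 91 and 86. The highest HEK293T summits lay at -596 and -527 bp with 9 and 7 reads, in a region (chr6:32636714-32637030) without a peak in any other line. HEK293T replicate 1 also had a peak of 7 reads at -150 bp, in the region of the GM12878 peak, and replicate 2 had none there.

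HLA-DQB1 encodes the DQ beta chain (ENSG00000179344.17, chr6:32659467-32668383, minus strand). Coverage was 16.06% and 10.96% in GM12878, 5.58% and 8.80% in HEK293T, and 0% in HFF1 and K562. The difference was 11.1 points (SE 1.46, adjusted p = 0.00175, limma), and it also passed against HEK293T alone at 6.32 points (adjusted p = 0.0227, limma). The gene had separate peaks at its canonical start, which lies after the module, and at an annotated start further upstream. The upstream peak was the highest in GM12878, with pileups of 103 and 104 and a deposited fold over local background of 16.8 and 17.2, and its summit lay at -1880 and -1886 bp of the canonical start. HEK293T replicate 2 had a peak of 8 reads in the same region. At the canonical start GM12878 had 42 and 33 reads and HEK293T 17 and 12, the latter with summits at -9 and 0 bp of the middle of the X core. A further region inside the gene (chr6:32666362-32666570) had 15 and 8 reads in HEK293T and no peak in the other lines. As a multiple of the library's background level, the canonical peak was 24.5 and 19.1 in GM12878 and 36.6 and 25.8 in HEK293T. HEK293T values run higher on this scale in general: the median peak was 20.4 and 20.2 in GM12878 and 34.4 and 34.3 in HEK293T. In both lines the canonical peak was above the library median in replicate 1 and below it in replicate 2, so neither line stood out at the module. The folds named here and below are the authors' values and are used to describe peaks within a list, except where lines are set side by side on them.

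**Figure D2:**
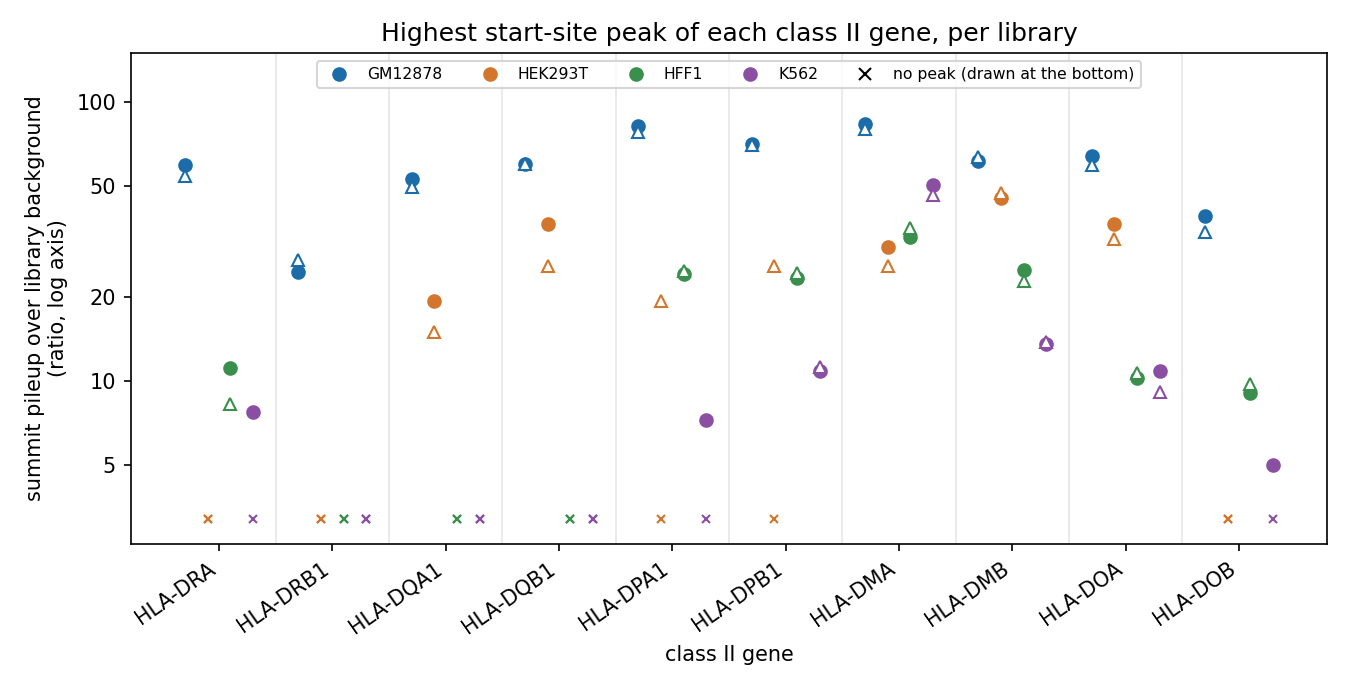
Pileup at the highest start-site peak of each class II gene divided by the background level of the library (ratio, logarithmic vertical axis), with 1 point per library, filled circles for replicate 1 and open triangles for replicate 2. Crosses at the bottom mark libraries without a start-site peak. Both GM12878 libraries were above the other 6 for all 10 genes, though the highest peak of a gene was not at the same place in every library. For HLA-DMA the K562 points and the HFF1 replicate 1 point are peaks at far upstream starts near BRD2. For HLA-DQB1 the GM12878 points are peaks at an upstream start and the HEK293T points are at the canonical start.

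HLA-DPA1 and HLA-DPB1 encode the DP alpha and beta chains and are transcribed away from each other (HLA-DPA1, ENSG00000231389.8, chr6:33064569-33080775, minus strand; HLA-DPB1, ENSG00000223865.11, chr6:33075990-33089696, plus strand). Their annotated bodies and start-site windows overlap, so they share peaks and are not independent. HLA-DPA1 was covered to 8.54% and 8.01% in GM12878, 0% and 2.47% in HEK293T, 21.1% and 14.9% in HFF1, and 2.46% and 0% in K562. HLA-DPB1 was covered to 12.9% and 14.4% in GM12878, 0% and 3.89% in HEK293T, 27.7% and 19.4% in HFF1, and 5.00% and 4.19% in K562. HFF1 was thus the highest line for both, with no overlap with GM12878.

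The DP differences between GM12878 and the mean of the other lines were 1.44 points for HLA-DPA1 (SE 1.73, adjusted p = 0.524, limma) and 3.59 points for HLA-DPB1 (SE 2.25, adjusted p = 0.236, limma), neither of which passed. Without HFF1 replicate 1 the HLA-DPB1 difference was 4.96 points and passed (adjusted p = 0.0387, limma). With the 20000 strongest peaks of each library both passed, at 6.92 points for HLA-DPA1 (adjusted p = 2.09e-05, limma) and 13.6 points for HLA-DPB1 (adjusted p = 2.27e-05, limma). Against HFF1 alone the differences were -9.76 points (adjusted p = 0.0118, limma) and -9.92 points (adjusted p = 0.0290, limma), lower in GM12878. In that comparison 30% of all tested genes were lower in GM12878 and 14.2% higher. Against HEK293T alone they were 7.04 points (adjusted p = 0.0281) and 11.7 points (adjusted p = 0.0116), and against K562 alone 7.05 points (adjusted p = 0.0471) and 9.01 points (adjusted p = 0.0496), all by limma and higher in GM12878. In those comparisons 53.9% and 19.6% of all tested genes were higher in GM12878. The direction for the DP genes therefore depended on the line set against GM12878.

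The peaks behind the DP coverage lay at 3 places. At a downstream start of HLA-DPA1 the pileup was 140 and 135 in GM12878, 59 and 51 in HFF1, 9 in HEK293T replicate 2 and 16 in K562 replicate 1, with summits between -87 and -50 bp of that start. At the start of HLA-DPB1 it was 121 and 122 in GM12878, 57 and 39 in HFF1, 24 and 22 in K562 and 12 in HEK293T replicate 2, with summits between -126 and -104 bp of the start. The third place, chr6:33080238-33081312, spans the canonical start of HLA-DPA1 inside the HLA-DPB1 gene and had a peak only in HFF1, with pileups of 55 and 50. GM12878 thus had the higher summits at both shared places, and HFF1 had an additional wide region that covered more of the window.

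HLA-DMA and HLA-DMB encode the chains of HLA-DM, the peptide exchange factor (HLA-DMA, ENSG00000204257.15, chr6:32948613-32969094, minus strand; HLA-DMB, ENSG00000242574.9, chr6:32934629-32941028, minus strand). HLA-DMA was covered to 15.8% and 14.8% in GM12878, 4.67% and 3.64% in HEK293T, 14.9% and 15.8% in HFF1, and 13.2% and 12.3% in K562. GM12878 and HFF1 overlapped, and the HLA-DMA difference was 4.51 points from the mean of the others (SE 0.681, adjusted p = 0.00300, limma) but -0.0890 points from HFF1 alone (adjusted p = 0.964, limma). Against K562 alone it was 2.49 points and did not pass (adjusted p = 0.0662, limma), and against HEK293T, the shallowest line, 11.1 points (adjusted p = 0.000185, limma). The HLA-DMA window also includes a far upstream start whose window overlaps that of BRD2, a widely expressed bromodomain gene, and peaks there were present in GM12878, HFF1 and K562. At the canonical start alone the pileup was 143 and 139 in GM12878, 78 and 73 in HFF1, 41 and 31 in K562, and 14 and 12 in HEK293T. Relative to the background level this was 83.5 and 80.2 in GM12878, 32.1 and 35.4 in HFF1, 18.6 and 15.8 in K562, and 30.1 and 25.8 in HEK293T. The HLA-DMA peak ranked 1053 of the 101779 peaks of GM12878 replicate 1 by p-value, the highest rank of any class II peak there.

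HLA-DMB was covered to 12.5% and 14.6% in GM12878, 6.53% and 6.69% in HEK293T, 7.68% and 6.87% in HFF1, and 3.47% and 3.8% in K562. GM12878 did not overlap the other lines, and the HLA-DMB difference was 7.68 points (SE 0.661, adjusted p = 0.000327, limma). With the 20000 strongest peaks of each library it was 4.70 points and did not pass (adjusted p = 0.137, limma). A peak over the promoter was present in all 8 libraries, with pileups of 91 and 110 in GM12878, 61 and 47 in HFF1, 30 and 27 in K562 and 21 and 22 in HEK293T. GM12878 had a further region upstream (chr6:32941310-32941804), with summits at -631 and -611 bp of the start and at least 100 reads in both libraries, in which no other library had a peak. The promoter peak of HLA-DMB was thus present in every line, and the GM12878 excess in coverage included a region of its own.

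HLA-DOA and HLA-DOB encode the chains of HLA-DO, the modulator of HLA-DM (HLA-DOA, ENSG00000204252.14, chr6:33004182-33009591, minus strand; HLA-DOB, ENSG00000241106.8, chr6:32812763-32820466, minus strand). HLA-DOA was covered to 12.5% and 14.9% in GM12878, 7.84% and 8.39% in HEK293T, 13.2% and 3.83% in HFF1, and 5.75% and 4.63% in K562. The 2 HFF1 libraries lay far apart, 1 of them between the GM12878 values, and the HLA-DOA difference of 6.42 points did not pass (SE 2.35, adjusted p = 0.0678, limma). It passed when either HFF1 library was left out, at 7.99 points without replicate 1 (adjusted p = 0.00317, limma) and 4.85 points without replicate 2 (adjusted p = 0.0134, limma). It also passed with the 20000 strongest peaks, at 12.4 points (adjusted p = 0.00795, limma), and scaled to the shallowest library, at 10.99 points (adjusted p = 8.99e-05, limma). The pileup at the HLA-DOA start was 110 and 103 in GM12878, 25 and 22 in HFF1, 24 and 18 in K562, and 17 and 15 in HEK293T, and the GM12878 and HEK293T summits lay 5 to 16 bp downstream of the middle of the Y box.

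HLA-DOB was covered to 21.9% and 21.0% in GM12878, 8.45% and 6.72% in HFF1, 3.88% and 0% in K562, and 0% in both HEK293T libraries. The difference was 18.3 points (SE 1.10, adjusted p = 8.63e-05, limma). The HFF1 and K562 peaks were not at the place of the GM12878 promoter peak: the GM12878 summits lay at -104 and -122 bp of the canonical start, while those of HFF1 lay at -2906 and -2904 bp and that of K562 replicate 1 at -3070 bp. With only canonical starts counted, HLA-DOB and HLA-DRB1 were both accessible in GM12878 alone, and HLA-DPA1 had no peak in either GM12878 library. GM12878 had a further peak of 58 and 58 reads within the gene, chr6:32816061-32816522, absent from the other lines.

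The highest start-site peak of each gene was then set on 1 scale, the pileup over the background level of the library, a comparison added after the values were seen. On this scale all 10 class II genes were higher in both GM12878 libraries than in each of the other 6 libraries, where 22.2% of all protein-coding genes were. The values ran from 24.5 at HLA-DRB1 to 83.5 at HLA-DMA in GM12878, with a median of 60.1. Where a peak was present, the medians were 27.9 in HEK293T (12 peaks), 23.1 in HFF1 (14) and 10.9 in K562 (11). The median over all peaks of a library was 20.2 and 20.4 in GM12878, 34.3 and 34.4 in HEK293T, 13.6 to 14.6 in HFF1 and 13.6 to 15.3 in K562, so the class II median was above the median peak in GM12878 and HFF1 and below it in HEK293T and K562. Single genes departed from this: HLA-DRA, HLA-DOA and HLA-DOB were below the median peak in both HFF1 libraries, and HLA-DMB was above it in both HEK293T libraries. HLA-DMA was above it in both K562 libraries, at 50.3 and 46.3, and at 18.6 and 15.8 at its canonical start. The class II values are the highest peak of each gene, whereas the library median is over all single peaks, so the measures are unlike. The highest peaks of a gene could also lie at different places in different libraries, as at HLA-DQB1 and HLA-DMB. With canonical starts only, 8 of the 10 kept this order, where 21.2% of all genes had it, and HLA-DQB1 and HLA-DPA1 did not. The fold over local background gave another order at the HLA-DMB promoter. It was 5.64 and 6.68 in GM12878, 13.25 and 13.37 in HEK293T, 11.82 and 11.61 in HFF1, and 7.61 and 7.45 in K562. At HLA-DPA1 and the canonical start of HLA-DMA the folds of GM12878 and HFF1 overlapped. At the highest peak of the remaining genes GM12878 had the higher folds.

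The position of the summit relative to the module was compared for the 6 genes that hold it. Only peaks that overlapped the stretch from the X core to the Y box were taken, so nearness to the Y box was largely fixed by this choice. Peaks elsewhere in the windows, such as the upstream HLA-DQB1 peak of GM12878, were left out. In GM12878, 12 summits of 6 genes lay between -39 and 156 bp of the middle of the Y box, with a median of 12 bp, where positive values point toward the gene. The 4 summits of K562, at HLA-DMA and HLA-DOA, lay between 1 and 12 bp. The 4 summits of HFF1, at the same genes, lay between -78 and -29 bp, on the X box side. HEK293T had 7 summits between -124 and 17 bp. Both replicates of HFF1 were on the X box side and both of K562 on the Y box side at HLA-DMA and HLA-DOA; with 2 libraries per line this difference was not tested.

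**Figure D3:**
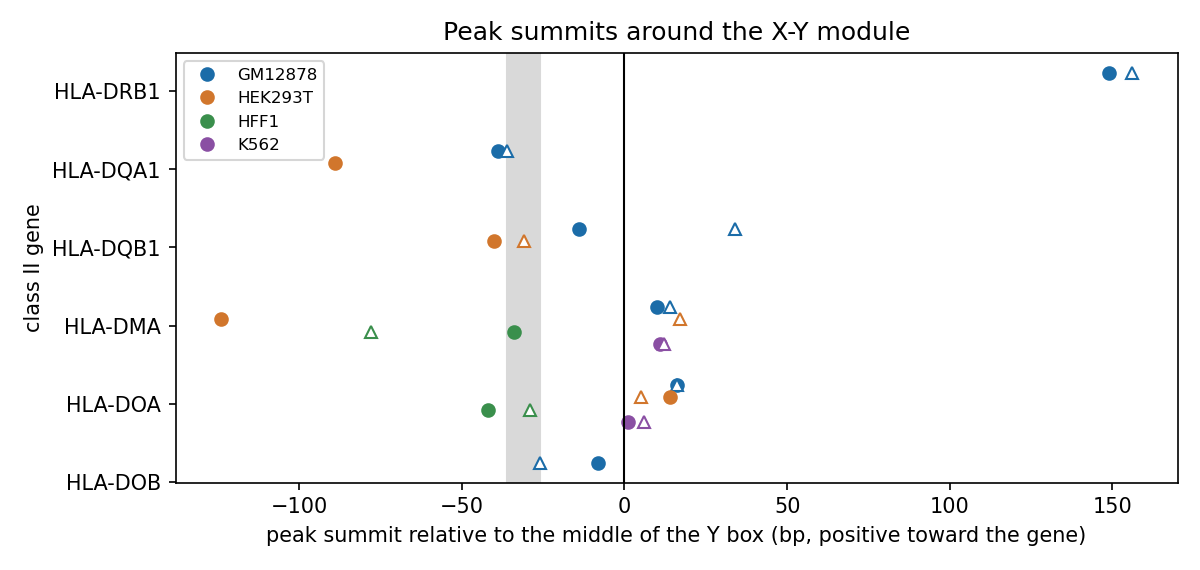
Position of the peak summit relative to the middle of the Y box (bp, horizontal axis, positive toward the gene) for the 6 class II genes with an X-Y module (vertical axis), with 1 point per library, filled circles for replicate 1 and open triangles for replicate 2. The vertical line marks the Y box and the grey band the X core. Only peaks that overlapped the module are drawn, so nearness to it was largely fixed by this choice. The summits fell within 156 bp of the Y box, and the HLA-DRB1 summits lay farthest downstream.

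The regulators and partners of class II presentation were read from a list of 16 genes. All 16 had a start-site peak in both GM12878 libraries, 11 in both HEK293T, 14 in both HFF1 and 12 in both K562 libraries, beside 71.9%, 67.8%, 76.2% and 70.4% of all genes. Coverage was higher in GM12878 than in the mean of the other lines for 9 of 16 and lower for 0 (limma, adjusted p under 0.05, beside the 27.8% and 18.2% of all genes given above). With coverage divided by the total peak length of the library, 7 of 16 were higher and 6 lower. On that scale 10.4% of all tested genes were higher and 47.2% lower, so the shift toward lower values was not particular to this list. The 9 were CIITA, RFXANK, RFXAP, CD74, CTSS, LGMN, IFI30, IRF4 and IRF8. Of these, CIITA, CD74, IRF4 and IRF8 also passed against each other line alone (limma, adjusted p under 0.05), and the rest did not.

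CIITA, the coactivator that switches class II genes on, was covered to 8.91% and 10.1% in GM12878, 4.33% and 3.93% in HFF1, and 0% in HEK293T and K562. Its difference was 8.15 points (SE 0.412, adjusted p = 4.64e-05, limma), and HFF1 was the only other line of the 4 with CIITA peaks. CD74, the invariant chain that guards the peptide groove, was covered to 45.9% and 44.2% in GM12878, 8.36% and 6.74% in HFF1, 8.72% and 8.36% in K562, and 0% in HEK293T, a difference of 39.6 points (SE 0.823, adjusted p = 2.36e-06, limma). IRF4, a B cell transcription factor, differed by 52.1 points (SE 2.56, adjusted p = 4.27e-05, limma). Genes of the RFX complex, NF-Y and CREB had start-site peaks in all 8 libraries: RFX5, RFXANK, RFXAP, NFYA, NFYB, NFYC and CREB1. Among these, RFXANK (2.68 points, adjusted p = 0.0234, limma) and RFXAP (11.7 points, adjusted p = 0.0145, limma) passed the test, and RFX5, NFYA, NFYB, NFYC and CREB1 did not. Against single lines RFXANK passed only against HEK293T (6.37 points, adjusted p = 0.00141, limma). RFXAP passed against HEK293T and K562 but not against HFF1 (4.26 points, adjusted p = 0.3455, limma). MARCHF1, which ubiquitinates class II molecules, had peaks in GM12878 and HEK293T only, the pattern of the DQ genes. SPI1, a myeloid and B cell factor, was covered to 21.5% and 24.9% in GM12878 and to 51.5% and 31.9% in K562, and to 0% in the other lines.

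**Figure D4:**
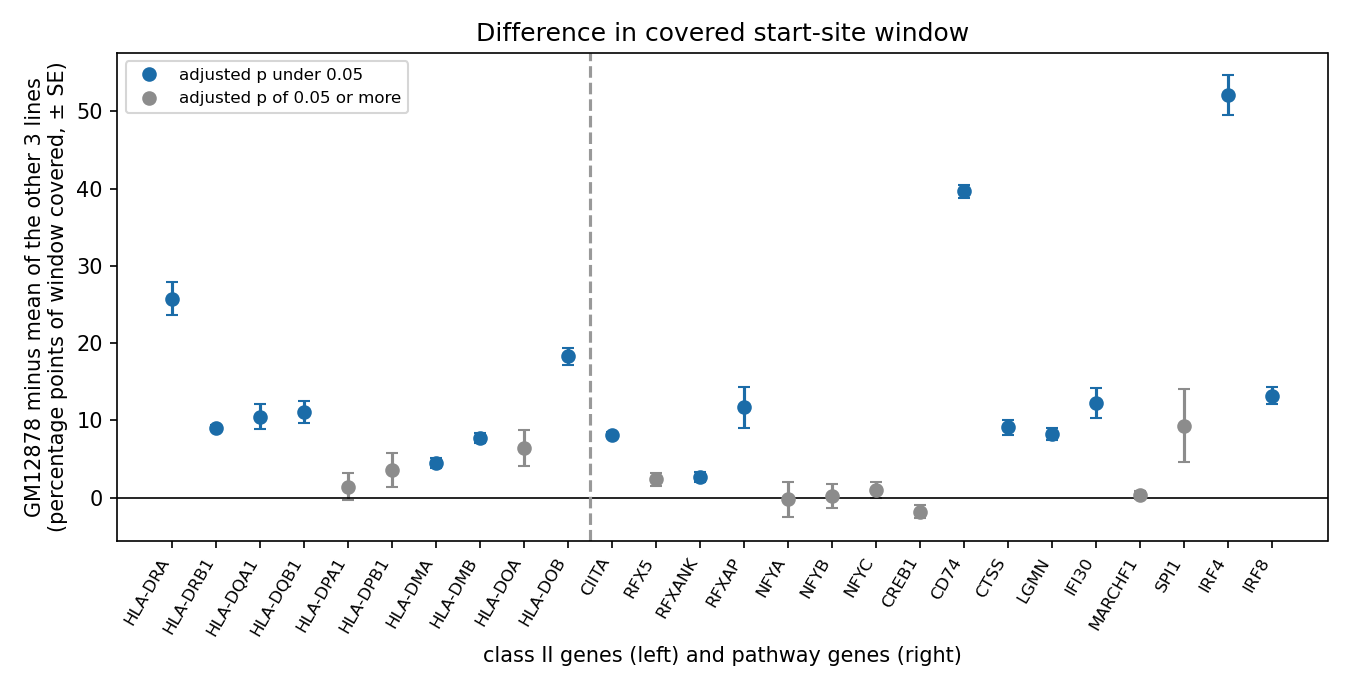
Difference in the covered share of the start-site window between GM12878 and the mean of the other 3 lines (percentage points, ± SE from limma, vertical axis) for the 10 class II genes and, right of the dashed line, the 16 pathway genes. Blue points passed an adjusted p of 0.05 (7 of 10 and 9 of 16); grey points did not, among them HLA-DPA1, HLA-DPB1 and HLA-DOA.

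The 5 genes outside the class II span whose coverage over the 8 libraries was most like the mean of the 10 class II genes were ABCB4 (Pearson r 0.994), SMIM36 (0.993), EHF (0.991), CMKLR1 (0.991) and LPAR2 (0.990). Of 15565 genes compared, 186 had an r above 0.95; the 8 points share their libraries and depths, and the values are a description.

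The class II genes lie in a span of 649.8 kb from HLA-DRA to HLA-DPB1 (chr6:32439878-33089696). The span had 60 and 65 peaks in GM12878, 21 and 21 in HEK293T, 36 and 38 in HFF1, and 24 and 23 in K562. The values of the 4 lines did not overlap, HEK293T and K562 being closest, and the share of variance between lines was 0.993 (one-sided exact permutation test over all pairings of the 8 libraries, p = 0.00952, the smallest it can give, adjusted p = 0.00952 over 3 tests). Peaks covered 25072 and 28012 bp in GM12878, 6603 and 6777 bp in HEK293T, 15745 and 15264 bp in HFF1, and 8315 and 7840 bp in K562. Per Mb of all peak length of the library, this was 619 and 681 bp in GM12878, 380 and 401 bp in HEK293T, 295 and 313 bp in HFF1, and 276 and 285 bp in K562. Both of these measures gave the same exact permutation p of 0.00952. GM12878 exceeded the mean of the other lines 2.30-fold in peaks, 2.63-fold in covered length and 2.00-fold relative to all peak length.

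**Figure D5:**
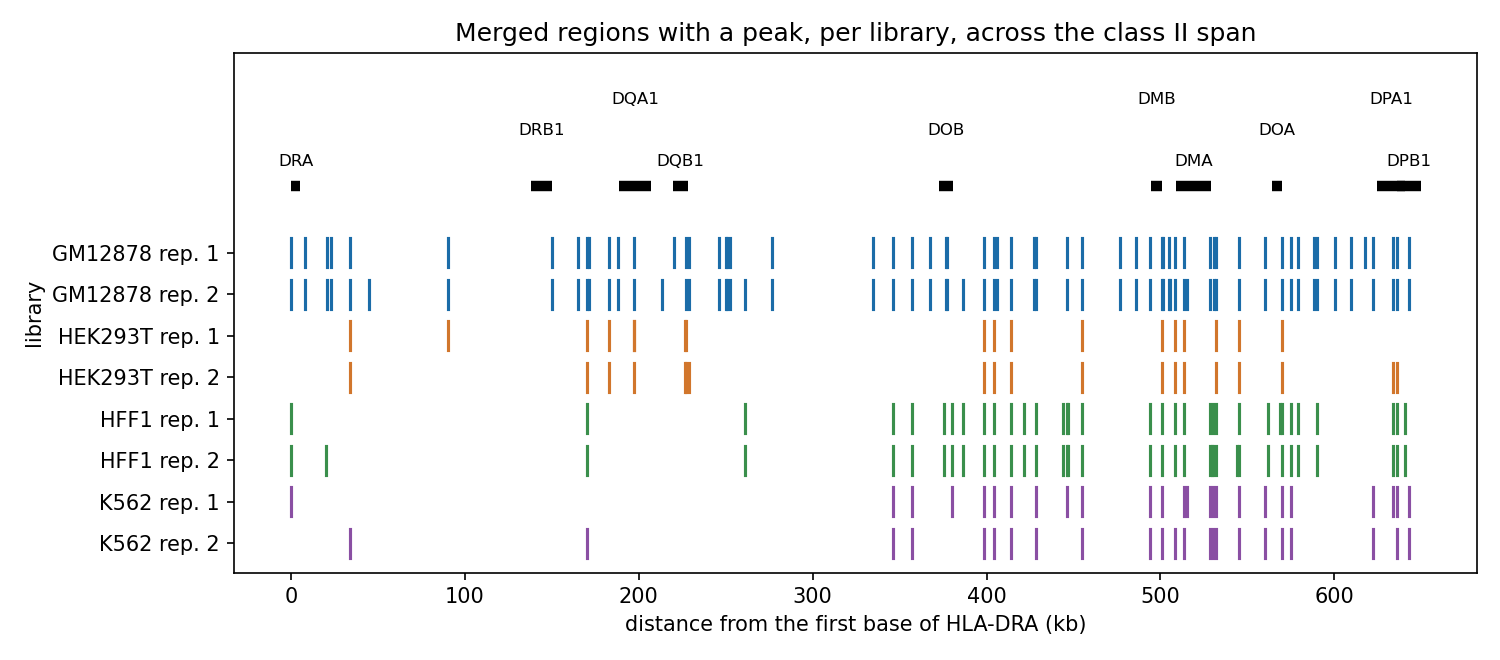
Merged regions with a peak in each of the 8 libraries (rows) against the distance from the first base of HLA-DRA (kb, horizontal axis), with the 10 class II genes as black bars above. GM12878 had peaks on both sides of HLA-DOB, whereas HFF1 and K562 had few left of it. Stretches of up to 59.1 kb had no peak in any library. The K562 replicate 1 mark at 0 kb is a peak that ends just before the first base of HLA-DRA.

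Peaks of the 8 libraries merged into 81 regions in the span, of 243200 on the autosomes and X. Calling a region in a line required peaks from its 2 libraries, and a region was assigned to 1 line alone if the 6 libraries of the other lines lacked a peak there. GM12878 only regions numbered 26 (32.1%), against 14.7% over all regions. HEK293T only regions numbered 2 (2.47%, against 1.78% over all regions), HFF1 only 7 (8.64%, against 21.2%) and K562 only 1 (1.23%, against 6.31%). Regions called in all 4 lines numbered 9 (11.1%), against 8.53% over all regions. Of the 26 GM12878 only regions, 5 lay in start-site windows of class II genes and 19 were more than 3 kb from any protein-coding start, with pileups from 12 to 118 in replicate 1 and from 15 to 114 in replicate 2.

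The GM12878 only regions with the highest fold were chr6:33040222-33040505, which holds no annotated gene and lies 28885 bp from the nearest start, that of HLA-DPA1 (fold 14.4 and 16.5), and chr6:32462551-32463066, in the HLA-DRB9 pseudogene and 22921 bp from HLA-DRA (fold 13.7 and 13.9). They are named because of their folds, after the values were seen. Between HLA-DRB1 and HLA-DQA1, the intergenic region chr6:32609821-32610453 had pileups of 84 and 90 in GM12878, 18 and 16 in HEK293T, 14 and 13 in HFF1 and 18 in K562 replicate 2. The neighbouring chr6:32622492-32623419, 5224 bp from the nearest HLA-DQA1 start, had 102 and 113 in GM12878, 17 and 17 in HEK293T and no peak in HFF1 or K562. The GM12878 summits there, at positions 32623175 and 32623137, lay apart from the HEK293T summits, both at 32622670, so the lines shared the merged region and not the summit.

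The span was split at the end of HLA-DQB2, a place chosen after the regions were seen. The part with the DR and DQ genes (323.7 kb) had 21 and 23 peaks in GM12878, 8 and 7 in HEK293T, 3 and 4 in HFF1, and 0 and 2 in K562. The part with HLA-DOB, HLA-DM, HLA-DOA and HLA-DP (326.2 kb) had 39 and 42 in GM12878, 13 and 14 in HEK293T, 33 and 34 in HFF1, and 24 and 21 in K562. Of the 9 regions called in all 4 lines, 0 lay in the DR and DQ part. In the other part lie TAP1, TAP2, PSMB8, PSMB9 and BRD2, whose products serve class I presentation or general transcription, and these genes had start-site peaks in all 8 libraries. HLA-DQA2 and HLA-DQB2, the near copies of the DQ genes, had none in any library.

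The X-Y module was also searched in the 100 bases on either side of each summit. It was present in 7 of 81 regions of the span. These were the start regions of HLA-DRA, HLA-DQA1, HLA-DQB1, HLA-DOB, HLA-DMA and HLA-DOA and 1 region outside the start-site windows. At the level of single lists the module was in 7 of 60 and 7 of 65 span peaks of GM12878, 4 and 3 of 21 in HEK293T, 3 of 36 and 3 of 38 in HFF1, and 2 of 24 and 3 of 23 in K562, against 0.476% to 0.584% of all peaks of a library. The X core letters were chosen with the promoters of these genes in view, and all but 1 of the regions are their start regions. The higher share in the span therefore follows from that choice and is no test of the module. The region outside the windows is chr6:32473370-32473774 in the HLA-DRB9 pseudogene, with pileups of 21 and 30 in GM12878, 11 and 7 in HEK293T, 16 in K562 replicate 2 and no peak in HFF1. Its run of 54 bases (chr6:32473659-32473712, minus strand) is printed with that of HLA-DRB5 (chr6:32530365-32530418, minus strand) to show how close these copies are to HLA-DRB1. HLA-DQB2 (chr6:32763608-32763661, minus strand) is shown as the copy of HLA-DQB1 that had no peak; it differs from the HLA-DQB1 module at 2 of 54 bases.
HLA-DRB9 region: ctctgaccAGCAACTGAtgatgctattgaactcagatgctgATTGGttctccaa
HLA-DRB5: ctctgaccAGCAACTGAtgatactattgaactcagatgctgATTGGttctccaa
HLA-DQB2: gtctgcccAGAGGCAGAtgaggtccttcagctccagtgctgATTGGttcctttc
The HLA-DRB1 start region had the module in its promoter but not wholly within 100 bases of the GM12878 summit, which lay downstream of it.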

How the data were processed

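Peak lists of 8 human bulk ATAC-seq libraries, 2 per line, were read; groups came from the labels. Per the submitters' processing notes, cutadapt 3.2, Bowtie2 2.4.2, Picard and MACS2 2.2.7.1 were used with builds hg38 and mm10; read shift, duplicate handling and multi-mapping settings are not given in the sources used here. Per the labels, about 20000 nuclei were sorted and 15 PCR cycles run. The authors deposited for each peak a fold (a linear ratio over local background), −log10 p and −log10 q values and a score; the score was not used. Each deposited list is of 1 library.

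Whole-number pileups and backgrounds were recovered from fold = (pileup + 1)/(background + 1) and the Poisson −log10 p, which solved 100% of peaks. The background level is the lowest 1% quantile of a list and stands for relative depth; PCR reads are not independent molecules and no counting interval was computed. Gene models were GENCODE release 44. Window coverage was tested with limma 3.58.1 (mean-variance trend, all 4 lines in 1 fit, R 4.3.3), after the code was tested on simulated data, and span measures by exact permutation (Python 3.11.15). The named genes were all 10 members, 16 pathway genes, other genes of the span and the 5 genes of most like coverage. The members and lists were chosen with earlier results of these data known. Alternatives covered windows, start sites, overlap, peak threshold, the 20000 strongest peaks, depth scaling, coverage scaling, single reference lines, left-out libraries and a replicate block.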

Additional observations from a re-analysis of the deposited data

Results flagged for a closer look

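The mESC libraries entered no comparison between human lines. Of the mouse class II genes, 6 of 8 (H2-Aa, H2-Ab1, H2-Eb1, H2-DMa, H2-DMb1 and H2-DMb2) had a start-site peak in both libraries. The share of all mouse genes with such a peak is not given here, so the count cannot be set against it. In the human lines 67.8% to 76.2% of all genes had a start-site peak in both libraries. The highest deposited folds were 10.2 and 10.8 at H2-Aa, 7.85 and 8.40 at H2-Ab1, 10.7 and 9.56 at H2-Eb1, 10.2 and 10.1 at H2-DMa, whose window overlaps that of Brd2, 15.1 and 16.8 at H2-DMb1, and 7.02 and 4.47 at H2-DMb2. H2-Oa had a peak in replicate 1 only (7.61) and H2-Ob in replicate 2 only (5.44). No mouse control is among these libraries. With 2 libraries per line, no test for a single library far from its group was possible.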

How the results depend on the processing

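The number of class II genes with a start-site peak was unchanged by windows of 500 bp and 2 kb, by the summit rule and by an overlap of 150 bp; at −log10 q of 5 or more HEK293T had 4. With canonical starts only, GM12878 had 9 (without HLA-DPA1) and HFF1 6, and 2 genes were in GM12878 alone. With the 20000 strongest peaks of each library, GM12878 had 8 (without HLA-DRB1 and HLA-DOB), HEK293T 1, HFF1 2 and K562 0 of the 10 genes, and 3 were in GM12878 alone (HLA-DRA, HLA-DQA1 and HLA-DPB1). Scaled to the depth of the shallowest library, an alternative chosen after seeing the data, HFF1 had 4 and 2 were in GM12878 alone. The shares of all genes with a start-site peak in these alternative settings are not given here. Shorter or scaled lists can leave fewer peaks at genes of any kind, so the lower counts are not a result about class II genes alone. Leaving out 1 library gave 10 to 10 genes in GM12878, 5 to 7 in HEK293T, 7 to 7 in HFF1 and 4 to 7 in K562 (7 without K562 replicate 2), and 1 to 1 in GM12878 alone. In the span, the 20000 strongest peaks gave ratios of 3.08 for peaks, 2.91 for covered length and 2.54 relative to all peak length, with 9 GM12878 only regions; depth scaling gave 2.56 for peaks and 18 such regions. Leaving out a replicate gave 2.22 to 2.38, 2.45 to 2.81 and 1.95 to 2.05 for these ratios, 26 to 29 GM12878 only regions, 7 to 9 class II genes and 7 to 11 pathway genes higher in GM12878 (9 class II genes without HFF1 replicate 1).

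In limma, the 20000 strongest peaks left 8 class II genes tested, without HLA-DRB1 and HLA-DOB. Of these, 7 were called higher in GM12878, beside 2511 of all 13223 genes tested in that setting. Of the 7, 4 were among the 7 called over all peaks. HLA-DPA1, HLA-DPB1 and HLA-DOA were gained and HLA-DMB was lost. Against HEK293T alone, 14 of the 16 pathway genes were higher in GM12878, where 53.9% of all tested genes were. HLA-DPA1 (-9.76 points), HLA-DPB1 (-9.92) and HLA-DMA (-0.0890) reversed against HFF1 alone. With a replicate block, 7 class II and 9 pathway genes were higher and 0 lower, and the share of variance between lines was 0.995 for peaks, 0.992 for covered length and 0.995 relative to all peak length. The differences between replicate 1 and replicate 2 correlated at -0.0197 to 0.0259 between pairs of lines across 16634 genes. They gave no sign that the replicate numbers pair libraries of different lines. The cause of each change was not tested. Depth limits HEK293T most, whose background level is 3.68 to 5.23 times below the others.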
